A study of Homo sapiens with 6 samples.

Results

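The 10 genes described here, SELENOP, GPX1, GPX2, GPX3, GPX4, SELENOW, SELENOH, SELENOM, SELENOS and SELENOK, encode selenoproteins and were matched by symbol among the 17448 genes of the expression table. SELENOP and GPX1 were chosen by their read counts and TPM in these 6 samples, which had moved in opposite directions between the groups, so their values are given as a description, with no test. The other 8 were added as members of the same protein family. RNA was sequenced from HCC2814, a human lung squamous cell carcinoma (LUSC) line. The cells had received non-targeting guide RNA (WT, n = 3) or guide RNA against MLST8 (MLST8-KO, n = 3), followed by antibiotic selection. For its western blots of this line, the paper lists 3 numbered sgControl and 3 numbered sgMLST8 entries. Neither the paper nor the sample titles say whether the numbered samples carry different guides. MLST8 encodes an adaptor subunit of the mTOR kinase complexes, and the study asked what its loss changes in LUSC cells. No source describes the sequenced cells as single clones, so cells in which MLST8 was not disrupted may have remained in the MLST8-KO cultures. The libraries were made from polyadenylated RNA, and the 3 samples of a group came from separate experiments.

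Selenoproteins carry selenocysteine, an amino acid in which selenium takes the place of the sulfur of cysteine. It is written into the protein at a UGA codon, which elsewhere ends translation, when a hairpin in the 3' end of the mRNA (the SECIS element) recruits the binding protein SECISBP2 and the elongation factor EEFSEC. When selenium is scarce the UGA can be read as a stop, and mRNAs in which it lies well before the last exon junction can then be degraded by nonsense-mediated decay, to which GPX1 mRNA is known to be prone. SELENOP is secreted, chiefly by hepatocytes, and carries selenium through the blood to cells that take it up by receptors such as LRP8. The glutathione peroxidases reduce hydrogen peroxide or lipid hydroperoxides, and several of the remaining members are small proteins of the endoplasmic reticulum (ER).

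The coding sequences of SELENOP and of the peroxidases are shown around their UGA codons, because the number of these codons is what separates SELENOP from the other 9 members. Sequences are from the GENCODE v29 transcripts of GRCh38, the build the authors used, with each selenocysteine codon in capitals (TGA in DNA letters). SELENOP (chr5:42799880-42887392, minus strand) has 10 such codons among the 381 codons of the transcript used. The codon at position 59 lies in exon 2 of 5, 357 bases before the last exon junction, and the other 9 lie in the last exon between codons 300 and 378. The window around codon 59 (chr5:42808156-42808200) and the exon 5 stretch with 9 TGA codons (chr5:42800732-42800968) read as follows.
SELENOP codon 59: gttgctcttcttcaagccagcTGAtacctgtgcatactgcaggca
SELENOP exon 5: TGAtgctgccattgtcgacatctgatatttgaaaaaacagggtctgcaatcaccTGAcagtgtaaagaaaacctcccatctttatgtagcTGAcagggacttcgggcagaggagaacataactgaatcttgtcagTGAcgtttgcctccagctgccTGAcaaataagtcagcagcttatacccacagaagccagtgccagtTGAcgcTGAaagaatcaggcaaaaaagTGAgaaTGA

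GPX1 (chr3:49357171-49358600, minus strand) has a single selenocysteine codon, number 49 of 203, in exon 1 of 2 and 105 bases before the exon junction. The corresponding codon is number 40 of 190 in GPX2, 102 bases before the last junction, 73 of 226 in GPX3, 240 bases before it, and 73 of 197 in GPX4, 342 bases before it. The windows lie at chr3:49358111-49358155 for GPX1, chr14:64942586-64942630 for GPX2, chr5:151025448-151025492 for GPX3 and chr19:1105382-1105426 for GPX4, each within 1 exon. GPX1 and GPX2 lie on the minus strand, GPX3 and GPX4 on the plus strand.
GPX1: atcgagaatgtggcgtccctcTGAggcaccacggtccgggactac
GPX2: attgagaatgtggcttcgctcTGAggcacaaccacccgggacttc
GPX3: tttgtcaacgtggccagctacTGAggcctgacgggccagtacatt
GPX4: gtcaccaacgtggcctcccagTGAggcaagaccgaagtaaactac

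SELENOS and SELENOK are shown because their selenocysteine codon stands almost at the end of the protein, beside a regular stop codon. It is number 188 of 189 in SELENOS (chr15:101270817-101277500, minus strand), 13 bases before the last exon junction, and number 92 of 94 in SELENOK (chr3:53884410-53891988, minus strand), 5 bases before it. The last coding bases were as follows, those of SELENOS at chr15:101272771-101272800 and those of SELENOK joined across an exon junction between chr3:53885558-53885854. In the other members the codon is number 13 of 87 in SELENOW, 44 of 122 in SELENOH and 48 of 145 in SELENOM.
SELENOS: agaggcccgtcatctggcggaTGAggctaa
SELENOK: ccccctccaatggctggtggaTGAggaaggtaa

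Library totals ran from 14381673 to 15744154 estimated counts, and 12951 genes passed the filter on low counts, all 10 members among them. MLST8 itself had 874, 827 and 842 estimated counts in the WT samples and 396, 629 and 401 in the MLST8-KO samples, so all MLST8-KO samples lay below all WT samples, and a part of the transcript remained in each. Its log2 fold change was -0.96 (SE 0.15, edgeR quasi-likelihood test, adjusted p = 0.003). Across all genes tested, 2116 were higher and 2030 lower in MLST8-KO at an adjusted p under 0.05, which is 16.3% and 15.7% of them. Levels are given below as CPM (read counts scaled to library size with edgeR's TMM factors) for comparison between samples, and as TPM (the deposited transcript abundances, which also divide by length) for comparison between genes. All 8 markers of squamous epithelium were expressed in every sample, for example KRT5 at 4404 to 8255 CPM and TP63 at 1408 to 2529 CPM, and 6 of the 8 were higher in MLST8-KO. KRT14 and SOX2 kept that call with any 1 sample left out, while KRT5, KRT6A, TP63 and DSG3 lost it without WT replicate 2 or MLST8-KO replicate 2, KRT5, KRT6A and TP63 also without MLST8-KO replicate 1, and KRT5 and KRT6A without MLST8-KO replicate 3 (adjusted p 0.0517 to 0.0977).

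SELENOP was the least abundant of the selenoproteins tested by mean TPM over the 6 samples (5.49 TPM) and showed the widest difference between the groups. It had 37.0, 32.3 and 22.5 estimated counts in WT replicates 1 to 3 and 301.2, 95.9 and 70.2 in the MLST8-KO replicates. In CPM these were 2.45, 2.20 and 1.59 in WT (mean 2.08 ± 0.45, SD, n = 3) and 19.4, 5.93 and 4.48 in MLST8-KO (mean 9.94 ± 8.24, SD, n = 3). Every MLST8-KO sample lay above every WT sample, but replicate 1 stood 3.27-fold above the higher of the other MLST8-KO samples and set most of the group mean. The mean was 4.78-fold that of WT, a log2 fold change of 2.24 (SE 0.52). Without MLST8-KO replicate 1, the mean of the remaining MLST8-KO samples was 5.21 ± 1.02 CPM (SD, n = 2), 2.50-fold that of WT, and the fitted log2 fold change was 1.32. With any other sample left out it stayed between 2.08 and 2.59.

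MLST8-KO replicate 1 also stood apart in the markers of hepatocytes, the main source of SELENOP in the body. Of 17 hepatocyte markers in the table, 17 had their highest value in that sample, and their summed level was 293.0 CPM there against 1.15 to 8.09 CPM in WT and 4.48 and 6.24 CPM in the other MLST8-KO samples. None of the 17 was at 0 in MLST8-KO replicate 1, whereas 3, 5 and 8 were at 0 in the WT samples and 2 in each of the other MLST8-KO samples. AFP, the fetal albumin relative, reached 849 counts in MLST8-KO replicate 1 and 3 to 26 in the other samples, and ALB reached 53 counts against 0 to 2. AFP, FGA and FGB, the 3 markers with enough counts to be tested, passed the threshold with all samples (log2 fold change 4.49, 4.49 and 4.55), and had log2 fold changes of -0.12, -0.30 and 0.16 without MLST8-KO replicate 1. In MLST8-KO replicates 2 and 3 the marker sum lay within the range of the WT samples while SELENOP lay 1.83-fold or more above the highest WT sample. Whether the hepatocyte transcripts of replicate 1 came from the HCC2814 cells was not tested, nor was their part in the SELENOP value of that sample. In these bulk samples a change in the cells present and a change in RNA per cell cannot be told apart.

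**Figure D1:**
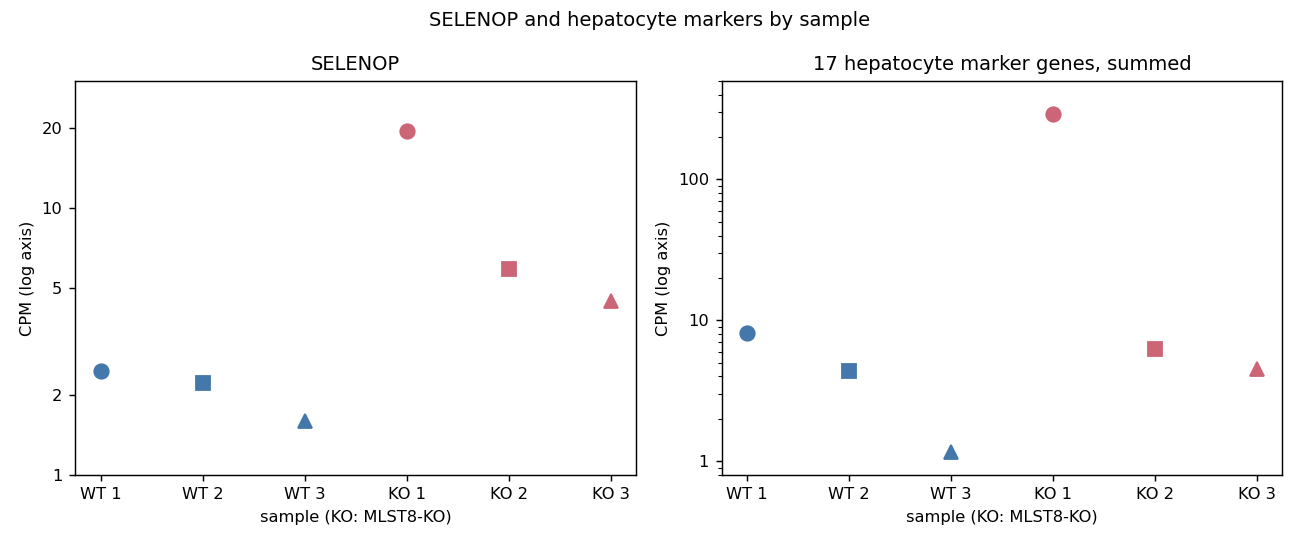
SELENOP (left) and the sum of 17 hepatocyte marker genes (right) in CPM on log axes, 1 point per sample (blue WT, red MLST8-KO; circle, square and triangle are replicates 1, 2 and 3). MLST8-KO replicate 1 is highest in both panels, at 19.4 and 293.0 CPM, while MLST8-KO replicates 2 and 3 lie above all WT samples for SELENOP and within the WT range for the markers.

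Markers of other cell types that can make SELENOP summed to lower levels than the hepatocyte markers of MLST8-KO replicate 1. Of the 7 macrophage markers measured, CD68, a lysosomal protein that many cell types express, accounted for nearly all counts, and its level fell in MLST8-KO (log2 fold change -0.45, SE 0.15, adjusted p = 0.041). That call was lost without WT replicates 2 or 3 or MLST8-KO replicates 1 or 3 (adjusted p 0.0858 to 0.154), and with upper quartile scaling and limma (0.0557 to 0.107). The pan-leukocyte gene PTPRC had 0 or 1 count in every sample. The 8 fibroblast markers summed to 31.8 to 35.0 CPM in WT and to 34.4 to 60.7 CPM in MLST8-KO, the highest value again in replicate 1, where the cartilage collagen gene COL2A1 alone gave 24.6 CPM against 0.072 to 0.93 CPM in the other samples. COL2A1 passed the threshold with all samples (log2 fold change 4.44, adjusted p = 0.041), and not without MLST8-KO replicate 1 (0.88, adjusted p = 0.439), without WT replicates 2 or 3 (0.125 and 0.0545) or with limma (0.106 and 0.187). The 7 intestinal markers summed to 1.23 to 1.66 CPM in WT and 2.56 to 15.4 CPM in MLST8-KO, highest in replicate 1. All but LGR5 were highest in that sample. CDH17 had 148 counts there, FABP1 20 and VIL1 15, and each had 0 or 1 in every other sample. LGR5, an intestinal stem cell marker on this list, was instead highest in MLST8-KO replicate 2 and rose from 0.50 ± 0.25 to 1.62 ± 0.86 CPM with no overlap (SD, n = 3; log2 fold change 1.67, SE 0.49, adjusted p = 0.028), a call lost without WT replicates 2 or 3 or MLST8-KO replicates 1 or 2 (adjusted p 0.0561 to 0.120). The part of these transcripts in the SELENOP values was not tested.

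GPX1, the cytosolic peroxidase that reduces hydrogen peroxide with glutathione, was abundant and moved the other way. Its estimated counts were 5410, 6087 and 8894 in WT and 4520, 4670 and 4707 in MLST8-KO. In CPM the WT samples had 358.8, 419.1 and 641.7 (mean 473.2 ± 149.0, SD, n = 3) and the MLST8-KO samples 291.6, 288.5 and 301.4 (mean 293.8 ± 6.74, SD, n = 3). The groups did not overlap, and the WT samples were spread far wider than the MLST8-KO samples because WT replicate 3 stood well above the other WT samples. The MLST8-KO mean was 0.621 times the WT mean, a log2 fold change of -0.69 (SE 0.17). Without WT replicate 3 the ratio was 0.755 and the log2 fold change -0.41, and with any other sample left out the latter lay between -0.85 and -0.67.

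**Figure D2:**
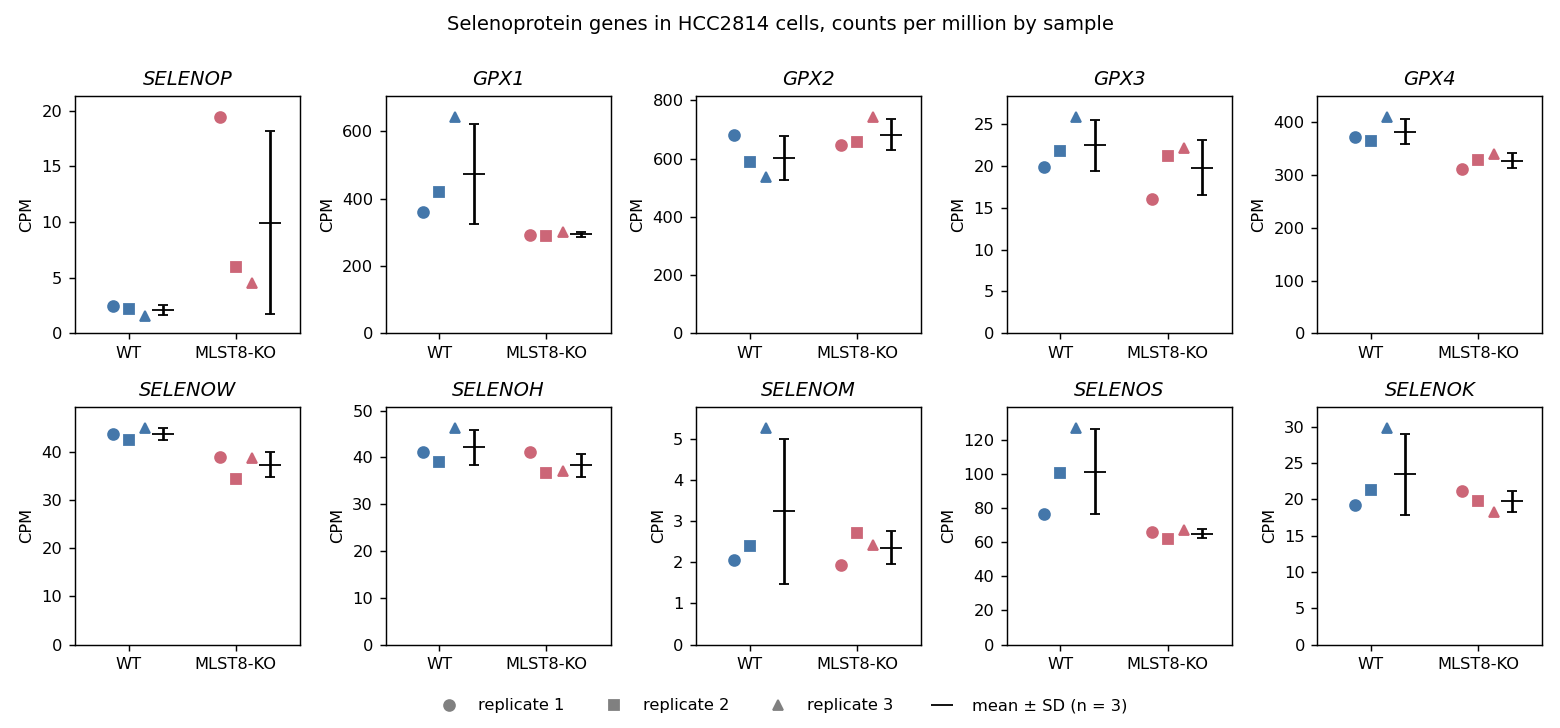
CPM of the 10 members in each sample (blue WT, red MLST8-KO; circle, square and triangle are replicates 1, 2 and 3), with the mean and SD of each group (n = 3) as black bars; each axis starts at 0. SELENOP is set apart by MLST8-KO replicate 1 at 19.4 CPM, and GPX1, SELENOM, SELENOS and SELENOK have their highest value in WT replicate 3.

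The remaining 8 members were tested across all genes. Of these, 0 were higher and 1, SELENOS, was lower in MLST8-KO at an adjusted p under 0.05, against 16.3% and 15.7% of all genes tested, and their median log2 fold change was -0.22 against 0.0045 for all genes. Before adjustment, 0 of the 8 passed 0.05 as higher, and SELENOS, GPX4 and SELENOW passed it as lower. The share of all genes passing before adjustment is not given here, so these results have no comparison. With DESeq2, 0 of the 8 were higher and 2, SELENOS and GPX4, were lower. Of the 17408 genes in that fit, a wider set than the 12951 tested by edgeR, 1858 were higher and 2012 lower. Counting samples rather than p-values, 3 of the 8 (GPX4, SELENOW and SELENOS) had every MLST8-KO sample below every WT sample and 0 had every MLST8-KO sample above, where 24.2% and 24.8% of all genes did so. Without MLST8-KO replicate 1 the counts among the 8 members were again 0 and 1, against 7.49% of all genes higher and 6.50% lower.

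SELENOS, an ER membrane protein that helps to pass misfolded proteins to the cytosol for degradation, fell in MLST8-KO. It was at 76.7, 100.3 and 126.5 CPM in WT and 66.1, 61.9 and 67.0 CPM in MLST8-KO. As for GPX1, the WT samples were spread widely with replicate 3 highest, the MLST8-KO samples lay close together, and the groups did not overlap. The log2 fold change was -0.64 (SE 0.15, adjusted p = 0.0119), between -0.80 and -0.45 with any 1 sample left out. The call was lost without MLST8-KO replicate 2 (log2 fold change -0.60, adjusted p = 0.0552).

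GPX4, the peroxidase that reduces lipid hydroperoxides in membranes and so protects cells from ferroptosis, was at 370.9, 365.2 and 409.4 CPM in WT and 311.9, 329.0 and 340.6 CPM in MLST8-KO. The groups did not overlap, but the log2 fold change of -0.22 (SE 0.08, 95% interval -0.38 to -0.07) missed the threshold after adjustment (adjusted p = 0.0524). It passed with DESeq2 (adjusted p = 0.0356), with the replicate number as a block (adjusted p = 0.0484) and without WT replicate 1 (adjusted p = 0.0423), with log2 fold changes of -0.23, -0.22 and -0.24. It did not pass with any other sample left out (log2 fold change -0.26 to -0.17, adjusted p 0.0725 to 0.185). Nor did it pass with upper quartile scaling (-0.17, adjusted p = 0.109) or limma (-0.12 in both settings, adjusted p = 0.268 and 0.267). SELENOW, a small thioredoxin-like protein, gave a similar picture, with 43.6, 42.4 and 44.9 CPM in WT and 38.9, 34.3 and 38.7 CPM in MLST8-KO, no overlap, and a log2 fold change of -0.23 (SE 0.09, adjusted p = 0.0674).

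GPX2, the gastrointestinal and epithelial peroxidase, was the most abundant member and was the 1 member besides SELENOP with a positive log2 fold change. It was at 682.3, 588.8 and 535.3 CPM in WT and 645.8, 657.3 and 742.1 CPM in MLST8-KO, so the groups overlapped. The log2 fold change was 0.18 (SE 0.10, 95% interval -0.02 to 0.38, adjusted p = 0.195). Without WT replicate 1, the highest WT sample, it was 0.28 (adjusted p = 0.0307).

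The groups overlapped for each of the 4 members left. GPX3, the secreted peroxidase, was at 19.8, 21.8 and 25.8 CPM in WT and 16.0, 21.2 and 22.1 CPM in MLST8-KO (log2 fold change -0.18, SE 0.15, adjusted p = 0.352). SELENOH, a nuclear thioredoxin-like protein, was at 41.1, 39.0 and 46.2 CPM in WT and 41.0, 36.6 and 37.1 CPM in MLST8-KO (log2 fold change -0.14, SE 0.09, adjusted p = 0.281). SELENOK, an ER membrane protein that works with a palmitoyltransferase, was at 19.3, 21.3 and 29.8 CPM in WT and 21.2, 19.8 and 18.3 CPM in MLST8-KO (log2 fold change -0.25, SE 0.16, adjusted p = 0.240). In all 3, WT replicate 3 was the highest sample. SELENOM, an ER thioredoxin-like protein, had 2.06, 2.41 and 5.27 CPM in WT and 1.94, 2.72 and 2.43 CPM in MLST8-KO, and its log2 fold change of -0.45 (SE 0.34, adjusted p = 0.338) turned to 0.082 without WT replicate 3.

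**Figure D3:**
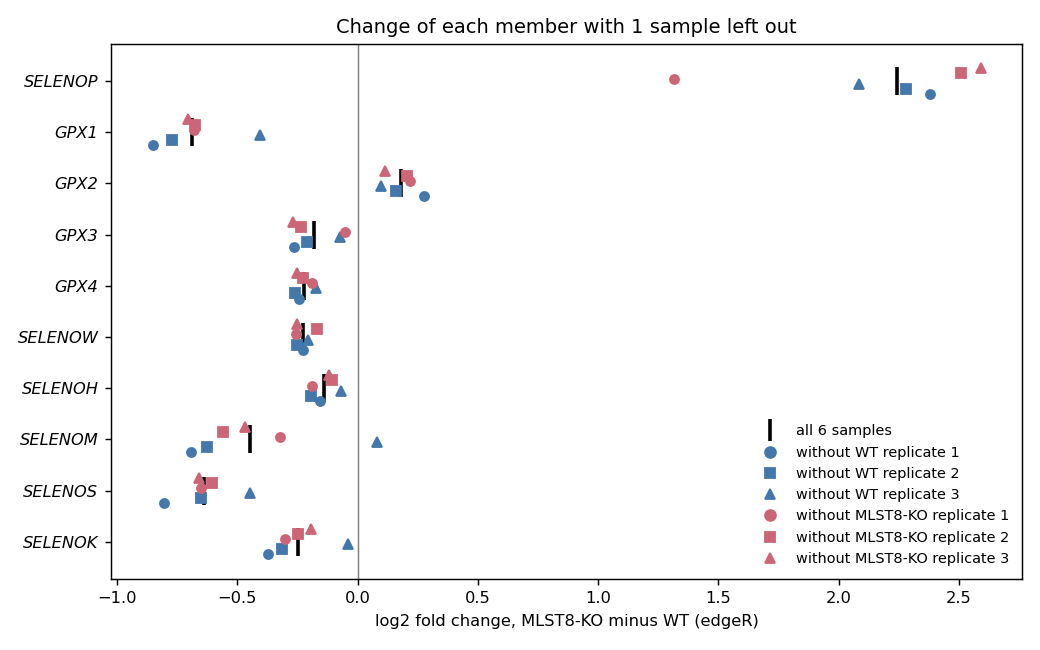
Log2 fold change (MLST8-KO minus WT) of each member with all 6 samples (black bar) and with 1 sample left out (points; color and shape name the sample). SELENOP drops from 2.24 to 1.32 without MLST8-KO replicate 1, GPX1 moves from -0.69 to -0.41 without WT replicate 3, and SELENOM crosses 0 without WT replicate 3.

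WT replicate 3 recurred in these values. It was the highest WT sample in 8 of the 10 members and the lowest in the other 2, SELENOP and GPX2, whereas over all genes tested it was the highest in 39.5% and the lowest in 39.2%. The 10 include SELENOP and GPX1, which were chosen by these same sample values. Among the selenoproteins tested outside the members, only SEPHS2 had its highest WT value in replicate 3, so this order was not shared by the family. The ratio of highest to lowest sample was larger in WT than in MLST8-KO in 7 of the 10 members, in 13 of the 20 selenoproteins tested and in 59.7% of all genes. Without WT replicate 3 each member except SELENOM kept the sign of its log2 fold change, and that of SELENOK was -0.04.

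Compared per length, the selenoproteins of these cells were led by a few genes. In mean TPM over the 6 samples, GPX2 stood first (1277 TPM), followed by TXNRD1 (846.0 TPM), GPX4 (842.6 TPM) and GPX1 (703.1 TPM), and these 4 made up 79.6% to 81.8% of the summed TPM of the 24 selenoprotein genes in the table in each sample. TXNRD1, the cytosolic thioredoxin reductase, is not among the 10 members. TXNRD1 and GPX4 did not differ beyond their spread in this order, at 623.2 to 964.1 TPM and 763.4 to 914.9 TPM over the samples, and the values of GPX1 (558.0 to 1116 TPM) overlapped with both. The summed TPM of the family was 4361 to 4660 in all samples, with WT (4464 to 4651) inside the range of MLST8-KO.

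The members below these 4 were at much lower levels. SELENOS had a mean of 135.8 TPM over the 6 samples and SELENOW 102.0 TPM. SELENOH (57.9 TPM), SELENOK (42.4 TPM) and GPX3 (23.9 TPM) came next, and SELENOM (9.14 TPM) and SELENOP (5.49 TPM) last. The ranges of SELENOS (109.3 to 195.8 TPM) and SELENOW (93.0 to 109.0 TPM) did not overlap, those of SELENOH (54.1 to 62.5 TPM) and SELENOK (36.5 to 55.1 TPM) overlapped slightly, and those of SELENOM (6.50 to 16.2 TPM) and SELENOP (1.35 to 17.9 TPM) overlapped only through the SELENOP value of MLST8-KO replicate 1.

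The balance between the peroxidases differed accordingly. GPX1 made up 14.1%, 16.9% and 24.3% of the summed selenoprotein TPM in WT and 12.8%, 12.3% and 12.3% in MLST8-KO. The ratio of GPX1 to GPX4 TPM was 0.749, 0.895 and 1.22 in WT and 0.731, 0.681 and 0.687 in MLST8-KO. The ratio of GPX1 to GPX2 TPM was 0.492, 0.666 and 1.12 in WT and 0.422, 0.410 and 0.379 in MLST8-KO. In both ratios every MLST8-KO sample lay below every WT sample, and WT replicate 3 was the sample in which GPX1 exceeded the other peroxidase. These ratios rest on the GPX1 values that chose the gene and carry no test.

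**Figure D4:**
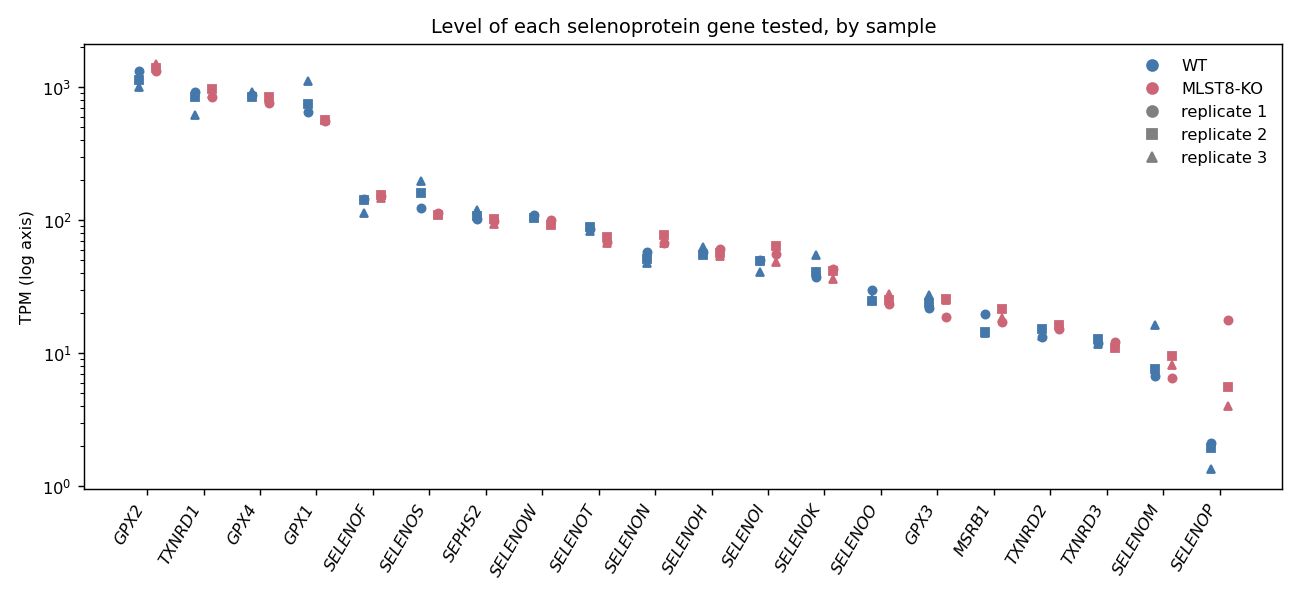
TPM of the 20 selenoprotein genes tested, ordered by mean TPM, on a log axis (blue WT, red MLST8-KO; circle, square and triangle are replicates 1, 2 and 3). GPX2, TXNRD1, GPX4 and GPX1 lie above all others, between 558.0 and 1489 TPM, and SELENOP is at the bottom with its MLST8-KO samples above its WT samples.

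The rest of the selenoprotein family was covered by a list of 15 genes, of which 14 were in the table and 10 passed the filter. Of the 10, 1 was higher and 2 were lower in MLST8-KO, counts near the 16.3% and 15.7% of all genes, and their median log2 fold change was 0.07. SELENON, an ER protein of calcium handling that is mutated in a congenital myopathy, rose from 119.5 ± 9.74 to 151.0 ± 8.91 CPM (SD, n = 3; log2 fold change 0.34, SE 0.09, adjusted p = 0.0163). All its MLST8-KO samples lay above all its WT samples, but the call was lost without WT replicate 2 (adjusted p = 0.0799) or MLST8-KO replicate 2 (adjusted p = 0.0666). SELENOT, a thioredoxin-like ER protein, fell from 161.6 ± 3.56 to 123.1 ± 4.32 CPM (log2 fold change -0.39, SE 0.07, adjusted p = 0.0052). SELENOT kept its call with any 1 sample left out and under every other setting.

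SEPHS2, itself a selenoprotein, makes the selenophosphate from which selenocysteine is built. It fell from 135.5 ± 14.7 to 112.5 ± 1.5 CPM (log2 fold change -0.27, SE 0.09, adjusted p = 0.0436), and the call was lost in 5 of the 6 fits with 1 sample left out (adjusted p 0.0893 to 0.119), all but that without WT replicate 1, and with upper quartile scaling and limma (0.0825 to 0.187). TXNRD1, TXNRD2 and TXNRD3, the cytosolic, mitochondrial and testis-type thioredoxin reductases, had log2 fold changes of 0.08, 0.06 and -0.17 and did not pass the test. Nor did SELENOF, SELENOI, SELENOO and MSRB1, with log2 fold changes of 0.08, 0.15, -0.17 and 0.14. The iodothyronine deiodinase genes DIO1, DIO2 and DIO3 had at most 2, 2 and 9 counts in any sample and SELENOV at most 1, and these 4 were not tested. With SELENOP and GPX1 left out, 1 of 18 selenoproteins tested was higher and 3 were lower, against 16.3% and 15.7% of all genes. All MLST8-KO samples lay above the WT samples for 1 of the 18 and below them for 6, against 24.8% and 24.2% of all genes.

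**Figure D5:**
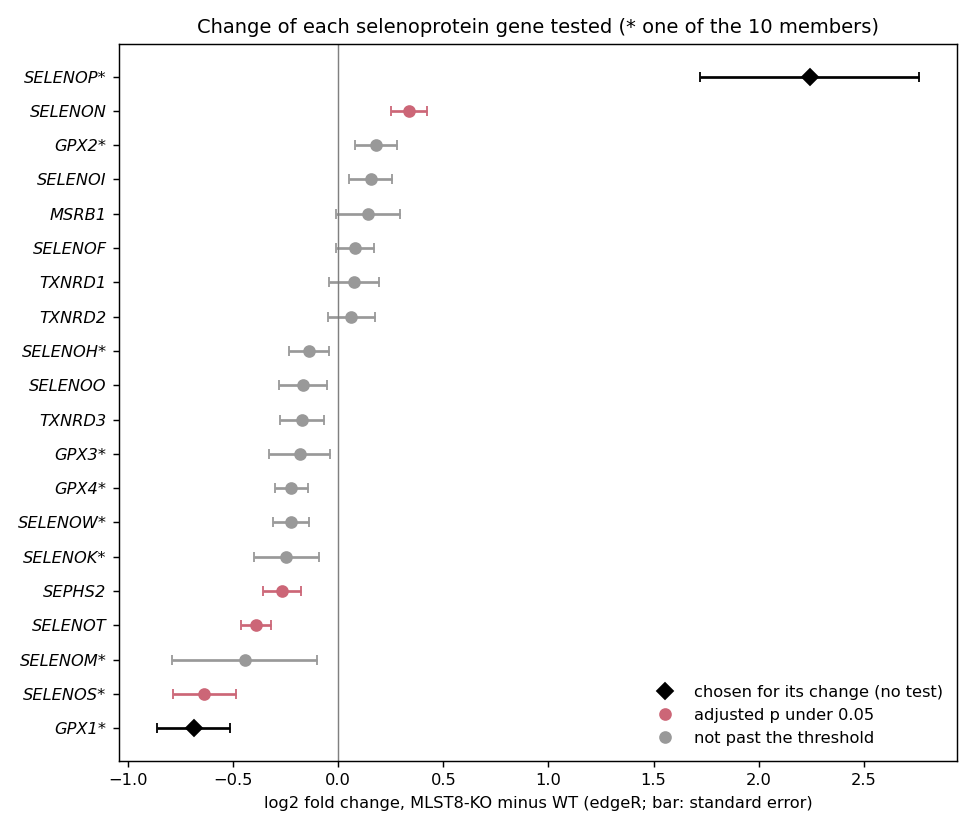
Log2 fold change (MLST8-KO minus WT, edgeR) of the 20 selenoprotein genes tested, with the standard error as bars; asterisks mark the 10 members, red points an adjusted p under 0.05, and black diamonds SELENOP and GPX1, which were chosen for their change. Apart from SELENOP at 2.24 all values lie between -0.69 and 0.34.

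Of 14 genes that make and insert selenocysteine, all tested, 2 were higher, 3 were lower and 9 did not pass, counts near the 16.3% and 15.7% of all genes, and their median log2 fold change was -0.09. EEFSEC, the elongation factor that brings selenocysteine to the ribosome, rose (log2 fold change 0.40, SE 0.11, adjusted p = 0.020), as did SCLY, the lyase that frees selenium from selenocysteine (0.54, SE 0.17, adjusted p = 0.035). SARS1, which charges the selenocysteine transfer RNA with serine and also serves ordinary serine codons, fell (-0.39, SE 0.08, adjusted p = 0.009). EIF4A3, a subunit of the exon junction complex, and RPL30, a ribosomal protein, both reported to bind SECIS elements, fell by 0.38 and 0.31 on the log2 scale (adjusted p = 0.014 and 0.015). SARS1 kept its call with any 1 sample left out. EEFSEC lost it without WT replicate 2 or MLST8-KO replicates 1 or 3 (adjusted p 0.0531 to 0.0728), SCLY without WT replicates 1 or 2 or MLST8-KO replicates 1 or 2 (0.0682 to 0.117), and EIF4A3 and RPL30 without WT replicate 2 or MLST8-KO replicate 2 (0.0533 to 0.0635). With DESeq2 the adjusted p of SCLY was 0.0502, and with limma that of RPL30 was 0.0788 and 0.0858. SECISBP2, with a log2 fold change of 0.21 (adjusted p = 0.060), did not pass.

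On the uptake side, 3 of 5 genes were tested and 1 was higher, against 16.3% of all genes. LRP8, the receptor through which cells take up SELENOP, was at 257.1, 218.9 and 186.1 CPM in WT and 296.0, 304.5 and 299.1 CPM in MLST8-KO. The groups did not overlap, and LRP8 rose by a log2 fold change of 0.44 (SE 0.11, adjusted p = 0.014), a call lost without WT replicate 2 or MLST8-KO replicate 2 (adjusted p = 0.0582 and 0.0531). LRP1 and PRDX6 did not pass (log2 fold change -0.23 and -0.10). LRP2, the renal receptor, had 12 counts in MLST8-KO replicate 1 and 0 to 2 in the other samples and was not tested.

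Among 14 genes tested that remove peroxides or superoxide or repair oxidized methionine without selenium, 2 were higher and 1 lower, counts near the 16.3% and 15.7% of all genes, and the median log2 fold change was -0.03. SOD2, the mitochondrial superoxide dismutase that produces hydrogen peroxide, fell from 969.6 ± 269.9 to 436.5 ± 15.4 CPM (SD, n = 3; log2 fold change -1.15, SE 0.17, adjusted p = 0.003). Its samples were ordered as those of GPX1 in WT, with 683.2, 1006 and 1219 CPM in replicates 1 to 3. WT replicate 3 was the highest WT sample in 39.5% of all genes tested. CAT, which also removes hydrogen peroxide, rose (0.43, SE 0.12, adjusted p = 0.022), a call lost without WT replicate 2 or MLST8-KO replicates 1 or 2 (0.0763 to 0.0845). MSRB3, the methionine sulfoxide reductase that uses cysteine where MSRB1 uses selenocysteine, rose from 2.04 ± 0.57 to 5.50 ± 0.67 CPM (1.42, SE 0.23, adjusted p = 0.004). The peroxiredoxins PRDX1 to PRDX5 had log2 fold changes from -0.11 to 0.04 and did not pass.

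Of 11 glutathione and lipid peroxide genes that work with or beside GPX4, 2 were higher and 1 lower, counts near the 16.3% and 15.7% of all genes, and the median log2 fold change was 0.11. GSR, which regenerates glutathione, rose (0.47, SE 0.10, adjusted p = 0.009). So did AIFM2, which limits lipid peroxidation through reduced coenzyme Q (0.36, SE 0.09, adjusted p = 0.018). GCH1, which starts the synthesis of the antioxidant cofactor tetrahydrobiopterin, fell (-0.50, SE 0.10, adjusted p = 0.006). The AIFM2 call was lost without MLST8-KO replicates 1 or 2 (adjusted p = 0.0669 and 0.0596). The cystine transporter gene SLC7A11 (log2 fold change 0.20) and the lipid enzyme gene ACSL4 (-0.01) did not pass.

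The ER degradation partners of SELENOS and SELENOK numbered 12, all tested, of which 3 were lower, against 15.7% of all genes, and 9 did not pass, with a median log2 fold change of -0.05. DERL1, the membrane channel protein that SELENOS binds, was at 245.2, 277.4 and 344.6 CPM in WT and 171.9, 173.6 and 172.8 CPM in MLST8-KO. This is the order and the spread seen for SELENOS, wide in WT with replicate 3 highest and narrow in MLST8-KO. Over all genes tested, WT replicate 3 was the highest WT sample in 39.5%. The ratio of highest to lowest sample was larger in WT than in MLST8-KO in 59.7% of them. Shared regulation of SELENOS and DERL1 was not tested. The log2 fold change of DERL1 was -0.74 (SE 0.11, adjusted p = 0.003). UBXN6, a cofactor of the VCP ATPase, and SYVN1, a ubiquitin ligase, fell by 0.37 and 0.34 on the log2 scale (adjusted p = 0.019 and 0.034). UBXN6 lost its call without WT replicate 2 or MLST8-KO replicates 1 or 2 (0.060 to 0.0811) and SYVN1 without WT replicates 2 or 3 or MLST8-KO replicates 1 or 2 (0.0802 to 0.116), and also with upper quartile scaling and limma (0.0545 to 0.110). VCP itself, DERL2 and SEL1L had log2 fold changes of -0.08, -0.02 and -0.06 and did not pass. HERPUD1, an ER membrane protein of the same pathway, had a log2 fold change of 0.23 (adjusted p = 0.075).

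Of the transcription regulators listed as tied to SELENOP, 5 could be tested, and 2 of them were higher, against 16.3% of all genes. FOXO1, which activates SELENOP in hepatocytes, rose from 8.78 ± 2.92 to 13.97 ± 2.30 CPM (SD, n = 3; log2 fold change 0.67, SE 0.22, adjusted p = 0.044), but lost the call in 5 of the 6 fits with 1 sample left out (adjusted p 0.0571 to 0.158), all but that without WT replicate 1. NR3C1, the glucocorticoid receptor, rose (0.41, SE 0.11, adjusted p = 0.020), a call lost without WT replicate 2 or MLST8-KO replicates 1 or 2 (0.0533 to 0.0745). FOXO3, FOXO4 and PPARGC1A had log2 fold changes of 0.01, 0.09 and 0.77 and did not pass. HNF4A had 18 counts in MLST8-KO replicate 1 and 0 to 5 in the other samples and was not tested.

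The genes around the members bear on how reads were assigned, because no source used here states whether the counting used strand. SELENOP overlaps CCDC152 on the opposite strand over 2481 bases, and CCDC152 had at most 4.76 estimated counts in any sample. GPX2 lies wholly within CHURC1 and CHURC1-FNTB on the opposite strand. CHURC1 was at 62.0 to 74.7 CPM, with a log2 fold change of 0.12 that did not pass. GPX1 starts 544 bases beyond RHOA on the same strand. RHOA, a small GTPase used by most cells, was listed at only 4, 0 and 2 counts in WT and 42, 4 and 6 counts in MLST8-KO, the highest value in the sample with the hepatocyte transcripts. Its part in the GPX1 values was not tested.

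Of the other neighbors within 5 kb, RAB15 beside GPX2 rose (log2 fold change 0.47, adjusted p = 0.022). SMTN, 14 bases from SELENOM, and SNRPA1 near SELENOS fell (-0.42 and -0.54, adjusted p = 0.047 and 0.007). SNRPA1 kept its call with any 1 sample left out. RAB15 lost it without WT replicate 2 or MLST8-KO replicates 1 or 3 (adjusted p 0.0692 to 0.0869), and SMTN in every fit with 1 sample left out but that without WT replicate 1 (0.0627 to 0.145) and with upper quartile scaling and limma (0.0685 to 0.160). TNIP1, SBNO2, TMX2, INPP5J and ACTR8 did not pass, and BTBD18, which overlaps SELENOH over 41 bases, was not tested. The annotation holds 6 processed pseudogenes of GPX1, SELENOW and SELENOK that are not rows of the table, and reads could be shared with these copies, so the values of those 3 genes are uncertain to that extent.

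The genes whose pattern over the 6 samples was most like that of SELENOP, by Pearson correlation of log2(CPM + 0.1) among 11187 genes with a mean of at least 50 counts, were RGPD5 (0.989), HOXB7 (0.989), EXOC6 (0.983), RHOQ (0.981) and MFSD1 (0.979). Each was highest in MLST8-KO replicate 1, as SELENOP was, though with smaller differences, for example 20.2 to 35.0 CPM over all samples for RGPD5. For GPX1 they were SPSB3, YKT6, PDGFA, PGK1 and KDELR1 (0.996 to 0.997). Each of these was highest in WT replicate 3 and nearly level across MLST8-KO, for example YKT6 at 212.3, 247.3 and 362.5 CPM in WT and 172.2, 162.1 and 177.1 CPM in MLST8-KO. These correlations are over 6 samples that share libraries and groups, and they are given as a description.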

How the data were processed

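RNA-seq covered 3 WT and 3 MLST8-KO samples of HCC2814 cells. Per the labels and the paper's methods, the authors filtered the reads for quality and adapters and mapped them with HISAT (genome, GRCh38.p12) and Bowtie2 (gene sequences). They deposited estimated counts (not normalized, 12.4% of values not whole), FPKM and TPM per gene and sample (FPKM was not used here). A second deposited table holds the authors' own DESeq2 fold changes, p-values and q-values and was not used. How the counting treated strand is not given in the sources used here, and the RNA kit differs between the labels and the paper. Of the symbols, 25 had been turned into dates and were restored from the gene identifiers.

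The tests were planned for whole counts, and the estimated counts were therefore rounded. Differences were tested by edgeR 4.0.16 under R 4.3.3 (TMM, filterByExpr, quasi-likelihood) on 12951 genes. Adjustment was by Benjamini-Hochberg over all of them, with a threshold of 0.05. Standard errors are those of the log2 fold change. The 95% intervals are the log2 fold change ± 1.96 standard errors. This is a normal approximation, and such an interval can exclude 0 where the unadjusted edgeR p is above 0.05. DESeq2 1.42.0, limma 3.58.1 on log2(TPM + 1) and log2(TPM + 0.1), other scalings and filters, the replicate number as a block and leaving out each sample were alternatives. On simulated data with 200 of 12951 genes changed by 1 on the log2 scale, 87% were recovered and 5.43% of calls were false. That change is larger than the change of any member but SELENOP, so the 87% does not hold for changes of their size. The simulation also changed far fewer genes than were called in the data and drew each sample independently, so the 5.43% may not hold for these data. A count of 0 allows up to 3 counts, 0.209 CPM in the shallowest library, for counting error only. Replicates of a group differed by more than sampling noise (chi-square per gene 7.00 to 26.6) and were kept apart.

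The members and gene lists were chosen with earlier results of these data known. Named are MLST8, all selenoproteins, up to 4 genes past the threshold in each direction per list, neighbors within 5 kb, and the 5 genes most like SELENOP and GPX1; other genes named beside them were chosen after their values were seen. SARS1 is listed under its older symbol SARS. Gene positions and sequences are from GENCODE v29 (GRCh38). GPX6 and some markers on the lists were not analysed here.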

Additional observations from a re-analysis of the deposited data

How the results depend on the processing

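SELENOP stayed higher and GPX1 lower in MLST8-KO under every alternative run. Both were chosen for these changes in the same samples, so the kept directions are a description and no support. The log2 fold change of SELENOP was 1.62 to 2.30 under other tests, scalings and filters and 1.32 to 2.59 with 1 sample left out, the lowest without MLST8-KO replicate 1, and that of GPX1 was -0.85 to -0.41 with 1 sample left out. Over all genes, leaving out 1 sample gave 971 to 2692 higher and 850 to 2651 lower genes. The split of 2116 higher and 2030 lower became 2546 and 1559 with upper quartile scaling, 2782 and 1134 with limma on log2(TPM + 1) and 2764 and 1132 on log2(TPM + 0.1), settings with log2 fold changes higher by a median of 0.05, 0.10 and 0.11. Among the 8 other members the count of lower genes was 2 with DESeq2 and with the replicate block, against 1, the second being GPX4. With 1 sample left out it was 0 to 2, and 0 to 1 were higher. Of the other selenoproteins 1 was lower, against 2, with upper quartile scaling and both limma settings, and with 1 sample left out 0 to 1 were higher and 1 to 2 lower. Leaving out 1 sample gave log2 fold changes of -0.69 to 0.082 for SELENOM, -0.057 to 0.19 for TXNRD1 and -0.0049 to 0.13 for SELENOF, each turning its sign without WT replicate 3, and of -0.12 to 5.70 for AFP and -0.30 to 5.38 for FGA, each turning without MLST8-KO replicate 1. Of 705 values of 51 single genes under alternatives, 592 kept their direction and side of the threshold, 104 lost the call, 4 gained it and 5 turned. The causes were not tested. Deviations of same-numbered samples correlated at 0.0882, 0.0757 and 0.151, so the replicate numbers were not taken as pairs, although each sample correlated best with its own number; the replicate block gave 2261 higher and 2157 lower genes. SELENOP rests on 22 to 37 counts in each WT sample, which limits its precision.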
